A study of Homo sapiens with 7 samples.

Results

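The H3K9me3 and H3K27me3 domains of one HCT116 clone, Clone 3, were set beside each other over the autosomes. The members were the deposited domains of each mark on chromosomes 1 to 22, which gave 504 of 567 H3K9me3 domains and 2332 of 2600 H3K27me3 domains, or 2836 of the 7448 regions in the 5 sets of the series. Every 1 kb bin and every protein-coding gene was placed in 1 of 4 classes, H3K9me3 only, H3K27me3 only, both or neither. A gene took the class of the bin that holds its start site. The classes were defined by position alone, and no level of either mark entered them.

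HCT116 cells derive from a human colorectal carcinoma and grow as an established line. Clone 3 carries a doxycycline-inducible short hairpin RNA against UHRF1 (shUHRF1) and was harvested at day 14 without doxycycline, a state called Baseline in the study, so the hairpin had not been induced in any sample used here. H3K9me3 and H3K27me3 were each immunoprecipitated from 2 samples of Clone 3, and 1 input served the clone. Each line is 1 clone, and the same construct is carried by Clone 6, whose 2 H3K27me3 samples, also at day 14 without doxycycline, were used only as a second set of H3K27me3 domains. The study kept the coordinates that both samples of a mark shared, so each mark is 1 merged set. The domain positions come with no replicate error or sequencing depth, and the 2 scores per domain name neither a sample nor a scale. The differences between classes were therefore described and not tested.

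H3K9me3 is written by SETDB1 and the SUV39H enzymes and is read by HP1 proteins. It is known for constitutive heterochromatin and for the silencing of repeats and zinc finger gene clusters by KRAB zinc finger proteins and TRIM28. H3K27me3 is written by EZH2 in Polycomb repressive complex 2, and is known for holding developmental regulators and genes of other lineages silent. UHRF1, the protein the hairpin is directed against, binds H3K9-methylated histone H3 and supports maintenance of DNA methylation by DNMT1. The study follows methylation of low-density CpGs, which lie at least 20 bp from the nearest other CpG, in these chromatin compartments.

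Sequence immediately upstream of a start site is shown for the gene deepest inside each single-mark class, for both genes that lay in both marks, and for a gene far from any domain, since CpG content was one of the properties that separated the classes. Each run is the 200 bases before the RefSeq start in GRCh38.p14, read 5′ to 3′ on the strand of the gene, with the bases of each CpG in capitals. All 33725 autosomal entries of the RefSeq promoter table were identical to hg38 at their coordinates. The windows were PRDM9, chr5:23507409-23507608 on the plus strand, DOCK2, chr5:169637075-169637274 on the plus strand, BNC2, chr9:16870671-16870870 on the minus strand, SH3GL2, chr9:17578866-17579065 on the plus strand, and INTU, chr4:127632757-127632956 on the plus strand.
PRDM9: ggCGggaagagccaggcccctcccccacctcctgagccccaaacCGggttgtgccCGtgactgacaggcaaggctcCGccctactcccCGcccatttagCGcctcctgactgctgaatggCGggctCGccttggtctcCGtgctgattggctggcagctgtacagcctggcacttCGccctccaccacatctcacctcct
DOCK2: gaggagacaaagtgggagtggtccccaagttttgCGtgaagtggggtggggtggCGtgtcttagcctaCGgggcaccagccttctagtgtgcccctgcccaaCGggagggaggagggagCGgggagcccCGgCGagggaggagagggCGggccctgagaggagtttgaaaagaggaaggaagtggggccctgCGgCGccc
BNC2: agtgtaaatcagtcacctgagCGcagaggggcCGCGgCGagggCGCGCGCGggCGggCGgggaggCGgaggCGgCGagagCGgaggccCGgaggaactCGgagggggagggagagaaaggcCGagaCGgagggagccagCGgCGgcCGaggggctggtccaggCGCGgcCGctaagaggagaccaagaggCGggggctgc
SH3GL2: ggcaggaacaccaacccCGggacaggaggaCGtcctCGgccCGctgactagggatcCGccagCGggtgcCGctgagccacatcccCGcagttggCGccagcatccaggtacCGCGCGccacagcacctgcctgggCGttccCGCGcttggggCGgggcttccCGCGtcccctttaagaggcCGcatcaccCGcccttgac
INTU: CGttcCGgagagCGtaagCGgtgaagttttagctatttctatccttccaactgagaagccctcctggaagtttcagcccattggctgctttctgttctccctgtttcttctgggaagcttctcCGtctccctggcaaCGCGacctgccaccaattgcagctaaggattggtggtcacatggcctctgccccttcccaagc

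PRDM9, the methyltransferase that directs meiotic recombination, had 10 CpGs in its window and lay in H3K9me3 only. DOCK2, a guanine nucleotide exchange factor of blood cells, also had 10 CpGs and lay in H3K27me3 only. BNC2, a zinc finger protein, had 25 CpGs, and SH3GL2, an endophilin of synaptic vesicle endocytosis, had 20. INTU, a gene of cilium assembly, had 7 CpGs and was the farthest gene from any domain with an entry in the table. Its GENCODE start was 15025 kb from the nearest H3K9me3 domain and 18217 kb from the nearest H3K27me3 domain. The RefSeq start of PRDM9 lies 64023 bp from its GENCODE start and that of INTU 9686 bp, and every printed window began from a start in the same class as the GENCODE start. In the 300-base window at the GENCODE start, the window used to compare the classes, PRDM9 had 4 CpGs and INTU 33, the opposite order to the printed windows.

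The marks covered nearly equal lengths and seldom the same bins. Of 2756368 autosomal bins with at least 500 known bases, 370333 were in H3K9me3 only (13.4%), 369173 in H3K27me3 only (13.4%), 4085 in both (0.148%) and 2012777 in neither (73.0%). The bins in both made up 1.09% of the bins of each mark. As a reference value, the product of the shares of the marks, taken within chromosomes and summed, came to 52.5 Mb, which is 12.9 times the 4.09 Mb observed. With the Clone 6 H3K27me3 domains the shared bins numbered 7468 and the ratio was 6.75, and with the higher-scoring domains 1645 and 26.1. This product takes no account of domain length or of sequence, and it is not a test.

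The shared length was below the product on 21 of 22 chromosomes. Chromosomes 5, 6, 7, 11 and 13 had no bin in both. The exception was chromosome 22, where 1.41% of bins were in both, or 0.551 Mb beside a product of 0.392 Mb. Most of that length was a single H3K27me3 domain of 485 kb at chr22:47990001-48475000, wholly inside an H3K9me3 domain of 1224 kb.

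The marks were weighted to different chromosomes. H3K9me3 only exceeded H3K27me3 only on 9 chromosomes and was the smaller class on 13. Chromosome 21 had 38.0% of its bins in H3K9me3 only and 7.21% in H3K27me3 only. Chromosome 19 had 25.02% and 6.99%, and chromosome 18 had 29.2% and 13.6%. The opposite tilt was seen on chromosome 12, with 5.33% in H3K9me3 only and 13.5% in H3K27me3 only, on chromosome 1, with 5.99% and 13.3%, and on chromosome 20, with 13.9% and 21.1%. Chromosome 6 was low in both classes, with 5.97% and 8.56%.

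**Figure D1:**
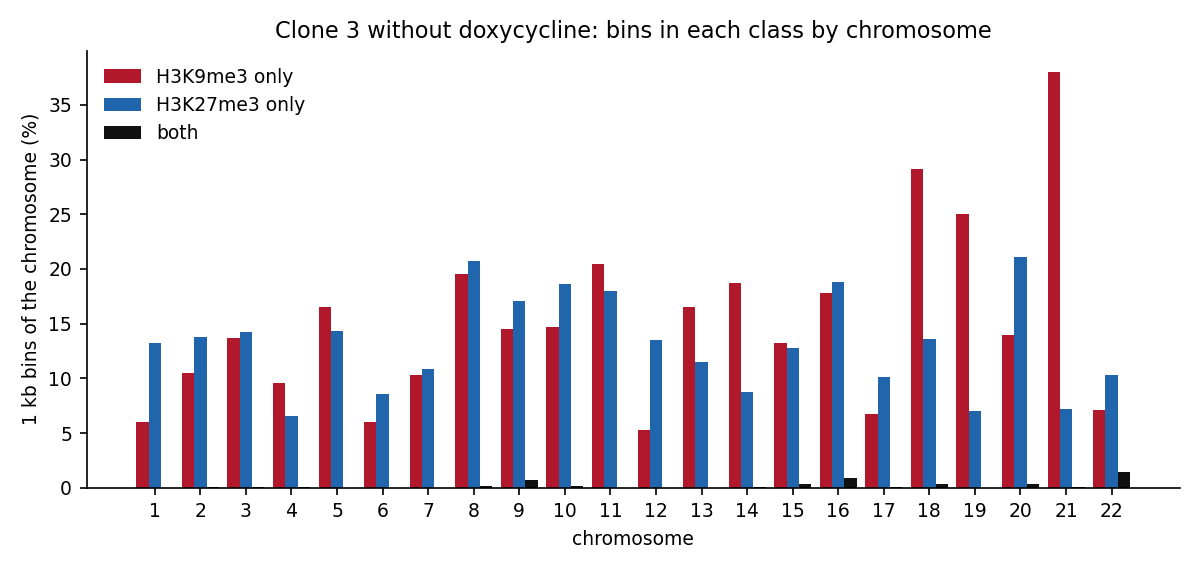
Bars give the percentage of 1 kb bins of each autosome in H3K9me3 only (red), H3K27me3 only (blue) and both (black) in Clone 3 without doxycycline. Chromosome 21 has the highest H3K9me3-only share (38.0%) and chromosome 20 the highest H3K27me3-only share (21.1%), and the bar for both reaches 1.41% on chromosome 22.

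The similar coverage was built from domains of very different size. The median H3K9me3 domain was 192 kb long (range 4 to 11436 kb) and the median H3K27me3 domain 67 kb (range 1 to 1952 kb). The 112 H3K9me3 domains that reached 1 Mb held 76.3% of the length of that mark, and the 40 such H3K27me3 domains held 13.4%. There were 57 H3K9me3 domains of at least 2 Mb, with 54.9% of the length, and 0 of H3K27me3. The length was divided equally at 2180 kb for H3K9me3 and at 395 kb for H3K27me3, in the sense that domains at least that long held 50% of the covered sequence. After domains separated by up to 50 kb were joined, the medians rose to 464 kb and 225 kb, and the order of the marks remained.

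**Figure D2:**
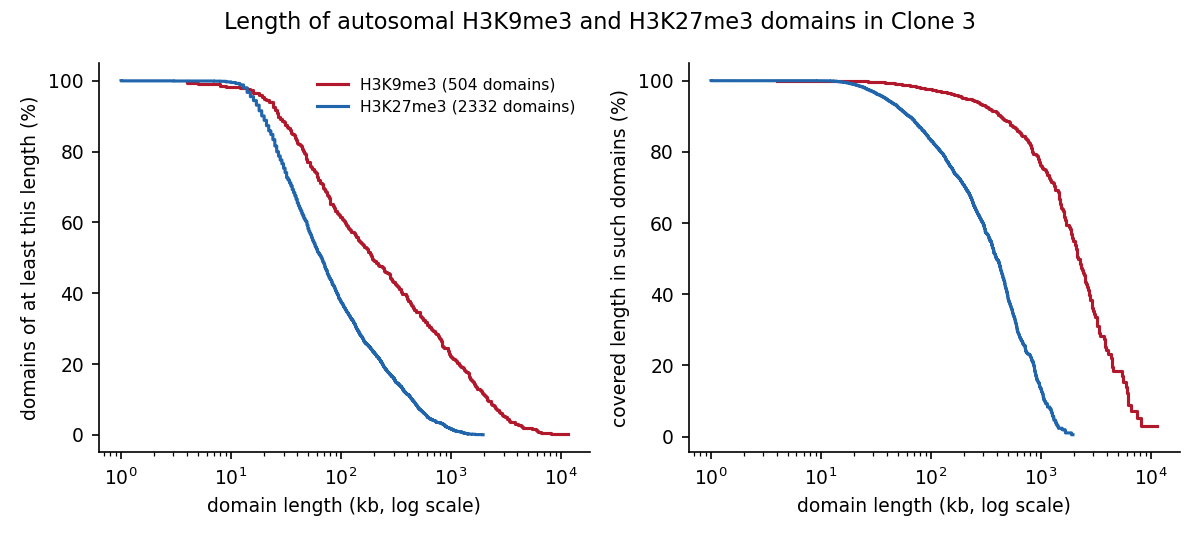
The left panel gives the percentage of domains, and the right panel the percentage of covered length, in domains at least as long as the value on the x axis (kb, log scale), for 504 H3K9me3 domains (red) and 2332 H3K27me3 domains (blue). At 50% of the length in the right panel the H3K9me3 curve is at 2180 kb and the H3K27me3 curve at 395 kb.

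The longest H3K9me3 domain was chr5:17600001-29036000, of 11436 kb, and held the start sites of 10 protein-coding genes. They included 4 type II cadherins, cell adhesion molecules of neurons and other cells (CDH18, CDH12, CDH10 and CDH9), together with PRDM9, the histone variant gene H3Y1 and 4 TAF11-like genes. The next was chr4:58931001-67063000, of 8132 kb, with ADGRL3, a latrophilin receptor, the ephrin receptor EPHA5, and TECRL. After it came chr21:17964001-25384000, of 7420 kb, with only the neural adhesion gene NCAM2 and the intestinal protease TMPRSS15. Gene number was thus low for the length, with 10, 3 and 2 start sites.

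The longest H3K27me3 domain was chr5:58598001-60550000, of 1952 kb, and held 1 start site, that of the cAMP phosphodiesterase PDE4D, whose 1553 kb lay entirely inside. The domain chr5:168715001-170610000, of 1895 kb, held 9 start sites. Among them were the axon guidance ligand SLIT3, DOCK2, the lymphocyte adaptor LCP2, the forkhead factor FOXI1, the potassium channel subunit genes KCNIP1 and KCNMB1, and the spindle gene SPDL1. The domain chr1:56805001-58475000, of 1670 kb, held FYB2 and the complement genes C8A and C8B. These 3 domains were 2787, 1223 and 6887 kb from the nearest H3K9me3 domain.

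The genes lying deepest in H3K9me3 only included 4 type II cadherins, and no cadherin was among the 10 deepest in H3K27me3 only. After PRDM9, at 5592 kb from the nearest edge, came CDH12 (5253 kb), CDH10 (4391 kb), NCAM2 (3034 kb), CDH18 (2976 kb) and CDH8 (2935 kb), then CSMD3, TECRL, FLRT2 and ADGRL3 at 2830 to 2269 kb. In H3K27me3 only, DOCK2 lay at 922 kb from the nearest edge and SPDL1 at 869 kb. ASTN1 and BRINP2, neuronal genes in 1 domain of chromosome 1, lay at 760 and 754 kb, and the transporter SLCO3A1 at 755 kb. PPP1R17, the ephrin receptor EPHA4, the protease ADAMTS9, the angiopoietin ANGPT1 and INSYN2B followed at 687 to 630 kb. Depth is bounded by domain length, so these values differ between the marks as the lengths do.

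The 2 marks overlapped in 60 intervals with a median length of 31 kb and a minimum of 1 kb. The 12 intervals of at least 100 kb held 65.6% of the shared length. In 24 intervals an H3K27me3 domain lay wholly inside an H3K9me3 domain (1.89 Mb), in 3 an H3K9me3 domain lay wholly inside an H3K27me3 domain (0.69 Mb), and in 33 the domains overlapped at an edge (1.504 Mb). The longest after that of chromosome 22 was chr16:13088001-13508000, an H3K9me3 domain of 420 kb inside an H3K27me3 domain of 1083 kb. The next was chr15:53193001-53427000, with 234 kb. All 3 were also in H3K27me3 in Clone 6 over 483, 420 and 229 kb. Other intervals had 0 kb in Clone 6 H3K27me3, the longest of them chr20:24192001-24344000, of 152 kb. Over all 60 intervals, 67.6% of the length was also in Clone 6 H3K27me3 domains, beside 76.7% of H3K27me3-only bins. Of the same length, 90.7% was in H3K9me3 domains shared by the clones. That shared set holds only coordinates also found in Clone 3, and the same share over all Clone 3 H3K9me3 was not computed. Bins in both lay within 5 Mb of a chromosome end in 22.6%, beside 7.0% of all bins, and 485 of these 922 bins were the chromosome 22 interval.

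The start sites of 2 protein-coding genes, BNC2 and SH3GL2, lay in both marks, and both were on chromosome 9. BNC2 is 461 kb long, with 369 kb of its body in H3K9me3 and all of it in H3K27me3, and its start site was 6.16 kb from the edge of the H3K27me3 domain. SH3GL2 is 218 kb long and lay entirely in H3K9me3, with 98.9 kb of its body also in H3K27me3. In Clone 6 the start site of SH3GL2 was in an H3K27me3 domain and that of BNC2 was not. With the Clone 6 H3K27me3 domains beside the same H3K9me3 domains 10 genes lay in both, and with the higher-scoring or clone-shared domains 1 did.

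Although the marks seldom shared bins, H3K27me3 was concentrated at a distance from H3K9me3. Of bins 1 to 10 kb outside an H3K9me3 edge, 5.22% were in H3K27me3, below the 15.5% of all bins outside H3K9me3. The share passed 21.3% at 51 to 75 kb, reached 41.7% at both 151 to 200 kb and 201 to 300 kb, and fell to 19.9% beyond 500 and up to 750 kb and 13.7% at 1501 to 2000 kb. The rise held on each chromosome taken alone. Next to the edge single chromosomes were compared only at 1 to 50 kb, where a lower share was not seen on all of them. On 22 of 22 chromosomes the share at 151 to 300 kb was above that of all bins outside H3K9me3 on the chromosome, and above the share at 1 to 50 kb. The share at 1 to 50 kb was below that of all bins outside H3K9me3 on 14 of 22 chromosomes. It was above on the others, as on chromosome 20, with 46.8% beside 24.7%, and chromosome 17, with 20.3% beside 10.8%. The share at 151 to 300 kb was lowest on chromosome 19, at 15.4%, and highest on chromosome 11, at 72.3%.

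The flank was fuller around long H3K9me3 domains. At 151 to 300 kb from an H3K9me3 domain of at least 1 Mb, 54.5% of bins were in H3K27me3, and at the same distance from a domain under 1 Mb 34.3% were. The Clone 6 H3K27me3 domains, which come from other samples, gave a share of 37.3% at 151 to 300 kb and 6.43% at 1 to 10 kb around the same Clone 3 H3K9me3 domains, beside 14.7% of all bins outside them. The reverse profile had no such peak. The share of bins in H3K9me3 was 1.99% at 1 to 10 kb from an H3K27me3 edge, reached 21.7% at 401 to 500 kb and was still 21.4% beyond 1000 and up to 1500 kb, beside 15.5% of all bins outside H3K27me3.

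**Figure D3:**
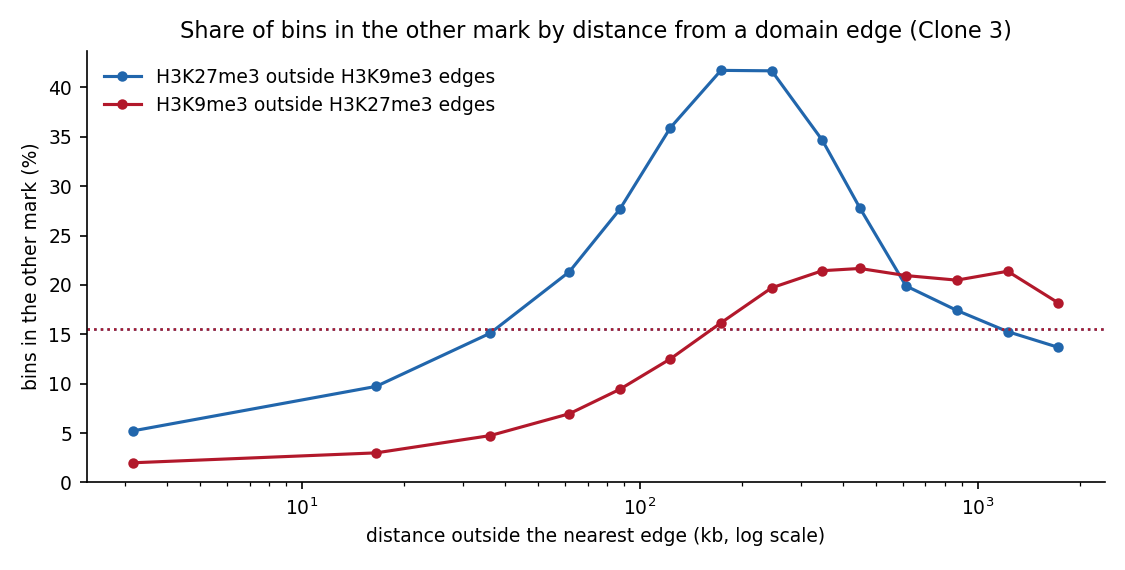
Points give the percentage of 1 kb bins in H3K27me3 by distance outside the nearest H3K9me3 edge (blue) and in H3K9me3 by distance outside the nearest H3K27me3 edge (red), with distance in kb on a log scale. Dotted lines, which nearly coincide, mark the shares of all bins outside the domains (both 15.5%), and the blue curve rises from 5.22% at 1 to 10 kb to 41.7% at 151 to 300 kb.

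Counted by domain, long H3K9me3 domains were near H3K27me3 more often than short ones. Of the H3K9me3 domains, 45 (8.93%) overlapped H3K27me3 and another 132 lay within 100 kb of it, so that 177 (35.1%) were near or overlapping. None touched H3K27me3 at a gap of 0. The near or overlapping H3K9me3 domains had a median length of 760 kb and the others 104 kb. Among domains of at least 1 Mb, 76 of 112 (67.9%) were near or overlapping, and 25.8% of the shorter ones were. Near or overlapping domains include the 45 that overlap, and the part of domain length in this difference was not tested. H3K27me3 lay within 100 kb on both sides of 34 H3K9me3 domains.

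Most H3K27me3 domains lay far from H3K9me3. Of the 2332, 59 (2.53%) overlapped H3K9me3 and 266 (11.4%) were near or overlapping. The near or overlapping count depended on the gap allowed, with 158 at 50 kb and 428 at 200 kb, and was 155 among domains of at least 100 kb. The median gap was 1809 kb, against 201 kb from an H3K9me3 domain to the nearest H3K27me3 domain. There were 611 H3K27me3 domains more than 5 Mb from any H3K9me3 domain (26.2%), and 17 H3K9me3 domains that far from H3K27me3 (3.37%). The marks had 2332 and 504 domains, and a mark with fewer domains can leave longer gaps to its nearest one. The part of domain number in these differences was not tested. Among H3K27me3 domains of at least 1 Mb, 3 of 40 were near or overlapping. Read along the chromosomes, 471 of 2814 pairs of neighbouring domains joined the different marks (16.7%), beside 29.2% from the product of the shares of domains. Pairs of H3K9me3 domains made up 9.31%, beside 3.16%. The gap was 10 kb or less in 29.0% of H3K9me3 pairs, 27.9% of H3K27me3 pairs and 13.8% of pairs of different marks. Pairs were not recounted after such domains were joined.

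The single-mark classes had fewer CpGs than unmarked sequence, and H3K9me3 only fewer than H3K27me3 only. H3K9me3 only had 7.13 CpGs per kb, H3K27me3 only 8.41, both 9.90 and neither 10.96. The GC content was 37.6%, 41.2%, 41.9% and 41.5% in the same order, and low-density CpGs were 64.1%, 61.3%, 58.9% and 50.1% of CpGs. The place of both in this order changed with the domains used. It was 12.02 CpGs per kb beside 10.89 in neither for the higher-scoring domains, and 9.18 beside 9.57 in H3K27me3 only with the Clone 6 H3K27me3 domains. The near-equal GC content of H3K27me3 only and neither held for the pooled autosomes, and on single chromosomes the classes differed in either direction, with 45.3% and 50.1% on chromosome 19 and 39.5% and 38.4% on chromosome 4. On 22 of 22 chromosomes each single-mark class had fewer CpGs per kb than neither, and H3K9me3 only had the lower GC content of the pair. H3K9me3 only had fewer CpGs than H3K27me3 only on 18 of 22. The 4 others were chromosomes 7, 12, 19 and 22, with the widest difference on chromosome 12, at 9.13 and 8.80 CpGs per kb. CpG-dense bins, with 30 or more CpGs, were 1.11% of H3K9me3 only, 1.41% of H3K27me3 only and 4.20% of neither.

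Genes were sparse in both marks and sparser in H3K9me3. Of 19111 autosomal protein-coding genes, 667 had the start site in H3K9me3 only (3.49%), 1238 in H3K27me3 only (6.48%), 2 in both (0.0105%) and 17204 in neither. At equal length this was 1.80 start sites per Mb in H3K9me3 only, 3.35 in H3K27me3 only and 8.55 in neither. No protein-coding start site was found in 318 H3K9me3 domains (63.1%) and 1653 H3K27me3 domains (70.9%). The genes of H3K9me3 were gathered in few places, as 28 domains with 5 or more start sites held 430 of them (64.3%), and the 29 such H3K27me3 domains held 278 (22.4%). Long noncoding RNA genes were less depleted in the single-mark classes, with 8.91% of 18390 starting in H3K9me3 only and 11.1% in H3K27me3 only. In both, 33 started (0.179%), beside 0.148% of all bins, or 8.08 per Mb beside 7.30 in neither.

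Genes of H3K27me3 in Clone 3 were mostly in H3K27me3 in Clone 6 as well. Of all genes, 7.98% had the start site in a Clone 6 H3K27me3 domain. The share was 82.5% in the H3K27me3-only class of Clone 3 and 1.35% in the H3K9me3-only class. By length, 76.7% of H3K27me3-only bins, 1.27% of H3K9me3-only bins and 3.36% of bins in neither were in Clone 6 H3K27me3 domains.

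Promoters differed in order from the bins of the classes pooled over autosomes. CpGs were counted from 250 bases before to 50 bases after the GENCODE start of every gene. The median was 12 in H3K9me3 only (interquartile range 3 to 22), 5 in H3K27me3 only (2 to 19.8) and 19 in neither (7 to 30). Windows with 12 or more CpGs were 51.9%, 34.9% and 65.4% of the classes. H3K9me3-only genes thus had more promoter CpGs than H3K27me3-only genes, whereas H3K9me3-only bins had fewer CpGs than H3K27me3-only bins. Without the ZNF, olfactory receptor, clustered protocadherin and keratin-associated protein genes, the medians were 16 for 314 genes and 6 for 1054 genes. Without chromosome 19, which holds 221 of the 667 H3K9me3-only genes, they were 8 and 5. On chromosome 19 itself H3K9me3-only bins had more CpGs per kb than H3K27me3-only bins, at 12.05 and 11.78, the same order as the pooled promoter medians. The sequence around each promoter was not compared.

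**Figure D4:**
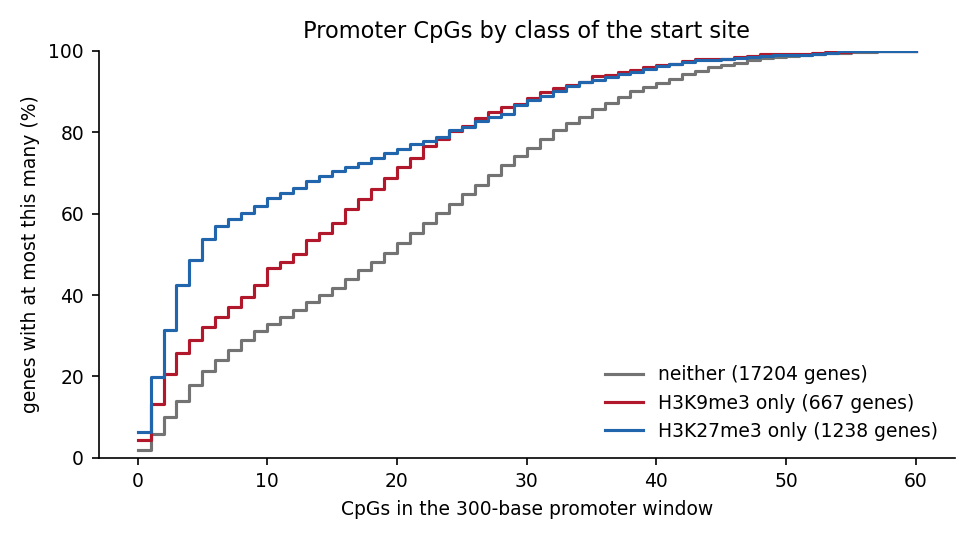
Lines give the cumulative percentage of protein-coding genes with at most the number of CpGs on the x axis in the 300-base window around the start site, for neither (grey, 17204 genes), H3K9me3 only (red, 667) and H3K27me3 only (blue, 1238). The blue line rises first and the grey line last, with medians of 5, 12 and 19 CpGs, and the red and blue lines run together toward the right.

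Long genes started in each single-mark class more often than other genes. Genes of at least 500 kb were 10.49% of H3K9me3 only, 5.33% of H3K27me3 only and 1.62% of all genes. Of the 309 such genes, 70 started in H3K9me3 only (22.7%), 66 in H3K27me3 only (21.4%), and 118 had no base in either mark (38.2%). The shares of all genes were 3.49%, 6.48% and 87.7% in the same order. Without the 4 gene families, 21.97% of H3K9me3-only genes were at least 500 kb long, beside 6.26% of H3K27me3-only genes and 1.70% of all genes.

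A set of 74 genes, or 0.387% of all genes, ran through both marks, with at least 20 kb of their body in each. Among genes of at least 500 kb, 47 of 309 did so (15.2%). The median length of the 74 genes was 670 kb (range 107 to 2474 kb), and at the median 47.3% of the gene was in H3K9me3 and 29.8% in H3K27me3. The start site was in H3K9me3 only in 36, in H3K27me3 only in 27, in both in 2 and in neither in 9. H3K27me3 lay nearer the start than H3K9me3 in 29 of the 74. The longest was RBFOX1, a neuronal splicing regulator of 2474 kb, which began in H3K27me3 (444 kb) and had 1210 kb in H3K9me3. CNTNAP2, a contactin-associated adhesion gene of 2305 kb, showed the opposite order, beginning in H3K9me3 (1930 kb) with 125 kb of H3K27me3 toward its end. The synaptic adhesion gene NRXN3 began in H3K27me3 (325 kb, with 888 kb in H3K9me3). AGBL4 had 383 kb in H3K27me3 and 854 kb in H3K9me3. Its start site was in H3K27me3 only, but just 0.953 kb inside the domain, and was not in Clone 6 H3K27me3. Most of its H3K27me3 lay toward the end, at a mean position 87.0% along the gene, beside 36.3% for its H3K9me3. FHIT, at a common fragile site, began outside both marks and had 327 kb in H3K27me3 and 107 kb in H3K9me3.

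Gene families are given beside the shares of all genes, 3.49% in H3K9me3 only and 6.48% in H3K27me3 only. Zinc finger genes that lay in a domain were almost all in H3K9me3, with 209 of 497 ZNF genes in H3K9me3 only (42.1%) and 4 in H3K27me3 only. The deepest were ZNF91, ZNF600 and ZNF724, at 1003, 975 and 950 kb from the edge, all on chromosome 19. The 4 in H3K27me3 were ZNF521, ZNF536, ZNF831 and ZNF334, and all 4 also lay in Clone 6 H3K27me3. The domain with most genes was the H3K9me3 domain chr19:51812001-53772000, of 1960 kb, with 47 start sites, most of them of ZNF genes. ZSCAN, ZKSCAN and ZIK genes had 4 of 28 in H3K9me3 only and 0 in H3K27me3 only.

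Adhesion and structural gene clusters were also found in H3K9me3, which held 3.49% of all genes. Clustered protocadherins, which give neurons their surface identity, had 36 of 53 members in H3K9me3 only and 0 in H3K27me3 only. Of these, PCDHGA1 lay deepest, at 105 kb from the edge. Type II cadherins had 8 of 13 in H3K9me3 only and 1, CDH20, in H3K27me3 only. Keratin-associated protein genes, expressed in hair, had 31 of 94 in H3K9me3 only and 1, KRTAP19-8, in H3K27me3 only. In Clone 6, 18 of the 94 were in H3K27me3 domains (19.1%), beside 7.98% of all genes, so the low H3K27me3 count did not hold in that set. Members of one cluster share a domain and are not independent of each other.

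Olfactory receptor genes, with 256 members in a domain, were found in each single-mark class above the shares of all genes (6.48% in H3K27me3 only and 3.49% in H3K9me3 only). H3K27me3 only held 179 of 414 (43.2%) and H3K9me3 only 77 (18.6%). The deepest in H3K9me3 were OR4A15, OR4A16 and OR4C45, at 815 to 773 kb from the edge, and the deepest in H3K27me3 were OR10D3, OR8G3P and OR8G2P, at 437 to 395 kb. All 6 are on chromosome 11. The H3K27me3 domain chr11:123745001-124620000 held 27 start sites, most of them of olfactory receptors.

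Some gene groups of skin, defence and metabolism had members in H3K27me3, beside 6.48% of all genes. The domain of H3K27me3 with most genes, chr1:152498001-153468000, held 45 start sites of the epidermal differentiation complex, including the late cornified envelope genes, SPRR genes, IVL and LORICRIN. Defensins had 12 of 46 in H3K27me3 only (26.1%) and 0 in H3K9me3 only. Cytochrome P450 and UGT genes, which act on drugs and steroids, had 14 of 77 in H3K27me3 only, led by CYP2B6, UGT3A1 and CYP2A7, and 1, CYP7B1, in H3K9me3 only. Keratins had 4 of 55 in H3K27me3 only (KRT77, KRT1, KRT2 and KRT76), or 7.27%, and type I interferon genes 1 of 17, IFNK, or 5.88%, both near the share of all genes. In Clone 6 H3K27me3 the keratin count was 12 of 55 (21.8%), beside 7.98% of all genes.

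**Figure D5:**
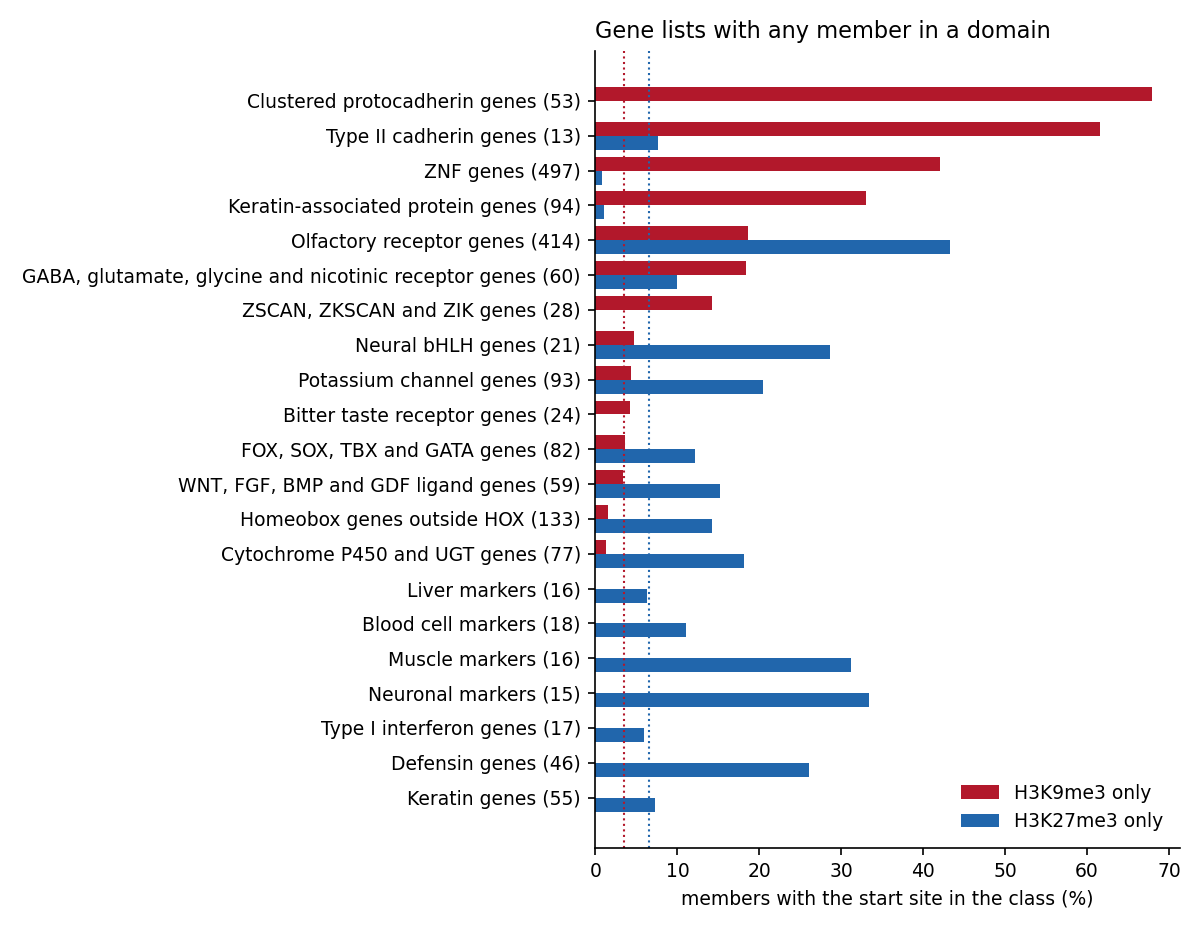
Bars give the percentage of members of each gene list (number of genes in parentheses) with the start site in H3K9me3 only (red) and H3K27me3 only (blue), and dotted lines mark the shares of all protein-coding genes (3.49% and 6.48%). Protocadherin, cadherin, zinc finger and keratin-associated protein genes have longer red bars, and potassium channel, neural bHLH, defensin, neuronal marker and muscle marker genes have blue bars well past the blue dotted line, while the blue bars of keratin, interferon and liver marker genes end near it and olfactory receptors have long bars of both.

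Developmental regulators were found in H3K27me3 more often than in H3K9me3, as all genes were (6.48% and 3.49%), and most lay in neither. Homeobox genes outside the HOX clusters had 19 of 133 in H3K27me3 only (14.3%), the deepest being IRX5, LMX1A and OTX2, and 2 in H3K9me3 only (1.504%). In Clone 6, 37 of the 133 were in H3K27me3 domains (27.8%), beside 7.98% of all genes. The 2 in H3K9me3 were IRX1 and IRX2, of the same family as IRX5, at 1256 and 455 kb from the edge. None of the 39 HOX genes was in a Clone 3 domain, the nearest being HOXC5 at 77.0 kb, and 2 were in Clone 6 H3K27me3 domains (5.13%). FOX, SOX, TBX and GATA genes had 10 of 82 in H3K27me3 only, led by FOXI1, FOXB1 and TBX5, and 3 in H3K9me3 only, among them SOX11 and SOX5 (3.66%, near the share of all genes). Neural bHLH genes had 6 of 21 in H3K27me3 only, among them NEUROD6 and NEUROD4, and 1 in H3K9me3 only. WNT, FGF, BMP and GDF ligands had 9 of 59 in H3K27me3 only, and WNT5A and BMP2 were in H3K9me3 only (3.39%, near the share of all genes).

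Genes of neuronal signalling had members in each single-mark class, beside 3.49% of all genes in H3K9me3 only and 6.48% in H3K27me3 only. Receptor genes for GABA, glutamate, glycine and acetylcholine had 11 of 60 in H3K9me3 only (18.3%) and 6 in H3K27me3 only (10.0%). The latter is about 2 genes above the share of all genes, and in Clone 6 H3K27me3 the count was also 6, beside 7.98% of all genes. The H3K9me3 group included GABRA5 and GABRG3 on chromosome 15, at 999 and 895 kb from the edge. The H3K27me3 group was led by GRIK3, GLRA1 and GRM8. Potassium channel genes had 19 of 93 in H3K27me3 only (20.4%), led by KCNIP1, KCNMB1 and KCNA1, and 4 in H3K9me3 only (4.30%), near the share of all genes. In Clone 6, 31 of the 93 were in H3K27me3 domains (33.3%). Bitter taste receptor genes had 1 of 24 in H3K9me3 only, TAS2R1, or 4.17%, also near the share of all genes.

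Markers of the labelled cell type lay outside both marks. All 18 intestinal epithelial markers, among them EPCAM, CDH1, KRT20, VIL1 and CDX2, were in neither, as were 90.02% of all protein-coding genes, so that few members of a list of this size would lie in a domain at the share of all genes. The nearest of these markers, CDH1, was 153 kb from a domain. Of the markers of other cell types, H3K27me3 only held 5 of 15 neuronal (GAD2, NEFM, NEFL, SLC17A6 and ELAVL4), 5 of 16 muscle (MYH1, MYH2, MYF6, MYF5 and ACTC1), 2 of 18 blood (HBB and MS4A1) and 1 of 16 liver (APOB), beside 6.48% of all genes. The liver share, 6.25%, was no higher than that of all genes, and the blood count differs from it by about 1 gene. H3K9me3 only held 0 of each of these 4 lists. Domains say nothing of expression, which was not measured here.

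Housekeeping and chromatin genes were also outside, beside 90.02% of all protein-coding genes in neither. None of 77 ribosomal protein genes, 47 proteasome genes, 44 complex I genes, 78 mitochondrial ribosome genes or 69 clustered histone genes was in a domain of either mark. The same held for 18 genes of H3K9 methylation and HP1, 27 of Polycomb and H3K27 demethylation and 16 of DNA methylation, although lists this short would hold few genes in a domain at the share of all genes. The nearest of these to a domain were MPHOSPH8 at 81.7 kb, CBX2 at 113 kb and MBD2 at 106 kb. In the housekeeping lists the nearest were closer, with MRPS5 at 2.0 kb, PSMB2 at 3.5 kb, RPSA at 26.7 kb and NDUFA9 at 51.9 kb. The nearest clustered histone gene was H2AC12 at 201 kb.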

How the data were processed

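H3K9me3 and H3K27me3 were measured by ChIP-seq, with 2 samples per mark of Clone 3, 2 of Clone 6 H3K27me3 and 1 Clone 3 input. The authors trimmed reads with TrimGalore (0.5.0), aligned them to hg38 with bowtie2 (2.3.5), removed duplicates, called domains in each sample with Enriched Domain Detector under default parameters, and kept coordinates shared by replicates. The deposited sets list domain positions, rounded to the kb, and per domain 2 columns of a score without a named scale or replicate. The score ranked domains only in 1 alternative. The sets carry no read depth, and the precision that depth gives is therefore unknown.

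CpGs and GC bases of hg38 were counted in 1 kb bins with at least 500 known bases. Genes came from GENCODE 44. A low-density CpG had no other within 20 bp. Gaps up to 100 kb counted as near. Shares were compared between classes without a test, as each mark is 1 merged set and neighbouring bins and genes share domains. The functions were tested on simulated domains. Named genes were those in both marks, those in the 3 longest domains of each mark, the 10 deepest per single-mark class, the 5 longest running through both marks, up to 3 deepest members per class of 31 gene lists, and the chromatin genes. Some genes that this rule names are not reported here. Genes outside this rule (further list members, the nearest unmarked genes and the genes of the densest domains) were chosen after their values were seen. The members and lists were chosen with earlier results of these data known. Alternatives used longer or higher-scoring domains, sets shared by the clones, Clone 6 H3K27me3, no chromosome 19, all bins, gene bodies, other gaps and joined domains. The work used matplotlib 3.10.9, scipy 1.17.1, numpy 2.4.6 and pandas 2.3.3 under Python 3.11.15. Chromosome X and contigs were left out, as were the H3K9me3 samples of Clone 6, which enter only through the shared set.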

Additional observations from a re-analysis of the deposited data

Results flagged for a closer look

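Chromosome X was outside the comparison and also held domains. In Clone 3 it had 264 H3K27me3 domains (12.2 Mb) and 39 H3K9me3 domains (1.01 Mb), so that the marks differed there far more in covered length than on the autosomes as a whole. These values have no control level beside them, and they were not tested.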

How the results depend on the processing

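No paired analysis was possible because each mark is deposited as 1 merged set, and for the same reason no replicate was left out. No result has a test, so the values show only how far each moved. Bins in single-mark classes stayed within 1.5 times under every alternative run, as did the genes in them. Bins in both fell to 1645 for the 50% of domains with the higher score and 2466 for the sets shared by the clones, and rose to 7468 with Clone 6 H3K27me3. Genes in both were 1, 1 and 10 in the same order. The product of shares remained 6.75 to 26.1 times the observed shared length under 5 of the 6 alternatives for bins, and it was not computed for all bins without the known-base minimum.

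CpGs per kb kept the order H3K9me3 only, H3K27me3 only, neither in every alternative where they were counted. These densities were not computed for all bins without the known-base minimum. With domains of at least 100 kb they were 7.07 and 8.33 in the single-mark classes and 10.2 in both. With the higher-scoring domains they were 7.07, 8.30 and 12.02, with the shared sets 7.19, 8.81 and 10.2, and with Clone 6 H3K27me3 7.12, 9.57 and 9.18, where both fell below H3K27me3 only, while with the higher-scoring domains it rose above neither (10.89). Without chromosome 19 they were 6.93 and 8.37.

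H3K27me3 domains near or overlapping H3K9me3 numbered 155 among domains of at least 100 kb, 158 at a gap of 50 kb and 428 at 200 kb. Medians of domain length after joining over 10 kb were 319 kb for H3K9me3 and 115 kb for H3K27me3, and over 50 kb 464 and 225 kb. The cause of these movements was not tested, beyond the fewer or wider domains that each alternative admits.

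In alternatives chosen with the data in view, the other H3K9me3 lengths and Clone 6 H3K27me3 gave 34.3% to 54.5% of bins in H3K27me3 at 151 to 300 kb. Median promoter CpGs were 8 to 12.5 in H3K9me3 only and 5 to 6 in H3K27me3 only.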
